A study of Mus musculus with 6 samples.

Results

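Mitochondria fuse, divide and are cleared by autophagy, and 9 genes of these processes were followed in differentiated mouse brown adipocytes of wild type and of cells in which the PGC-1 coactivators were targeted. The genes were Mfn1, Mfn2 and Opa1 for fusion, Dnm1l, Fis1 and Mff for fission, and Bnip3, Bnip3l and Pink1 for mitophagy. Members were all probe sets that the platform annotation gives to only 1 of these symbols. They numbered 21 of the 45037 probe sets on the array and covered 8 of the 9 genes. The probe sets of Bnip3l are also annotated with a second symbol, so Bnip3l was not analysed here. A filter on dim signal, at a mean of 7.61 on the log2 scale (an intensity of 163.6), kept 18 of the 21. The 3 that did not pass were 1 probe set each of Mfn1, Dnm1l and Mff.

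Mitofusins, encoded by Mfn1 and Mfn2, join the outer membranes of neighbouring mitochondria, and OPA1 joins the inner membranes and shapes the cristae. Division is carried out by the dynamin-related GTPase DRP1, encoded by Dnm1l, which is recruited from the cytosol by adaptors of the outer membrane such as MFF, while FIS1 also sits in that membrane. Mitophagy removes damaged or surplus mitochondria through the kinase PINK1, which accumulates on damaged mitochondria, or through receptors such as BNIP3, a gene induced by hypoxia. Brown adipocytes are rich in mitochondria that make heat through UCP1, and their mitochondrial network divides when the cells are stimulated. The coactivators PGC-1α, from Ppargc1a, and PGC-1β, from Ppargc1b, bind transcription factors and are known for raising mitochondrial gene expression.

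RNA was measured in 3 groups with 2 arrays each. The first group was wild type. The second carried a PGC-1α knockout and a control siRNA (knockout-control below), and the third carried the same knockout and an siRNA against PGC-1β (knockdown below). All 3 consisted of cells immortalised with SV40 large T antigen and taken after 7 days of differentiation. No siRNA is named for wild type, and only wild type has a passage number (4) in the labels, so genotype, siRNA and cell line cannot be told apart in either comparison with wild type. The number of separate lines or clones is not given in the sources used here. Arrays of a group are called biological replicates in the series design. With bulk RNA, fewer cells of a type and less RNA per cell cannot be told apart.

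The targeted genes were checked first. Ppargc1b had a mean intensity of 3006 for wild type, 2082 for knockout-control and 378.8 for knockdown. The gene was lower in the knockdown group than in knockout-control by limma (log2 fold change -2.47, adjusted p = 0.0241), a call lost without either knockout-control array (adjusted p up to 0.156). The 5 Ppargc1a probe sets stood at 55.3% to 61.7% of the wild-type mean in knockout-control and at 61.0% to 86.3% in the knockdown group, so none was near 0 in the cells labelled knockout. The brightest averaged 1329 for wild type and 798.9 for knockout-control (log2 fold change -0.71, adjusted p = 0.125, limma). Of the 5, 3 were called lower in knockout-control than in wild type, and each of these calls was lost without any 1 of the 4 arrays compared (adjusted p up to 0.377). The part of the transcript that was deleted is not given in the labels, so the remaining signal does not check the knockout. Adipocyte markers summed to between 72067 and 83643 over the 6 arrays. Brown adipocyte markers summed to 24015 and 23594 in wild type, 21300 and 21109 in knockout-control and 11579 and 9044 in the knockdown group, and Ucp1, the uncoupling protein, went from 4625 and 3962 in the first and second groups to 130.2 in the third. Preadipocyte and fibroblast markers summed to 8277 and 7193, 6742 and 7901, and 10227 and 8777 in the same order of groups, with 3 of 9 called higher and 1 lower in knockdown against wild type. In knockout-control against wild type 2 of these 9 were called higher and 1 lower. From knockout-control to knockdown 1, Dlk1, was called higher and none lower. Of the 8 brown adipocyte markers above the filter, limma called 5 lower and 1, Elovl3, higher in knockdown against wild type. Elovl3 was also called higher in knockout-control against wild type, where none was called lower. From knockout-control to knockdown 4 of the 8 were lower and none higher. The part of the brown adipocyte and preadipocyte markers in the results below was not tested. Of the listed markers, 4 of 8 for muscle, 4 of 6 for macrophages and 2 of 5 for endothelium lay above the filter, and none of these was called in any comparison.

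The second knockdown array was dimmer than the first, at 75.4% of all tested probe sets and at 17 of the 18 members. The median ratio of the second to the first array was 0.849 over all tested probe sets and 0.765 over the members. In knockout-control the second array was the brighter one, with a median ratio of 1.10 over all tested probe sets and 1.14 over the members. There 4 of 18 members were lower on it, against 30.7% of all tested probe sets. In wild type the ratio was 1.01 over all and 0.952 over the members, and 12 of 18 members were lower on the second array, against 45.2% of all. Values of both arrays are given below for this reason, and the part of array brightness in the results with the knockdown group was not tested beyond the alternative scalings given with them.

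Opa1, the inner-membrane fusion GTPase, was lower in both groups labelled PGC-1α knockout, and of the genes followed it had the widest range of group means. Its brightest probe set, 1434890_at, read 2288 and 2118 in wild type, 998.9 and 1147 in knockout-control and 911.9 and 584.1 in the knockdown group. Every array of the knockout lines lay below both wild-type arrays, and the knockout-control and knockdown arrays did not overlap either. Knockout-control stood at 48.7% and knockdown at 34.0% of the wild-type mean intensity. On the log2(intensity + 32) scale used for all fold changes, Opa1 fell by 1.02 (SE 0.21) from wild type to knockout-control, with an adjusted p of 0.0256 by limma over all probe sets tested. From wild type to knockdown Opa1 fell by 1.55, with an adjusted p of 0.00355. The step from knockout-control to knockdown, a log2 fold change of -0.53, did not pass (adjusted p = 0.333). The 3 comparisons share arrays, so their values are not independent.

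The other Opa1 probe sets ran the same way. Probe set 1418768_at read 724.5 and 690.5 in wild type, 426.2 and 374.0 in knockout-control and 352.9 and 296.9 in the knockdown group. Here too no array of either knockout group reached a wild-type array. Opa1 at this probe set fell by 0.78 (SE 0.16) from wild type to knockout-control (adjusted p = 0.0242, limma) and by 1.06 from wild type to knockdown (adjusted p = 0.00532, limma). Probe set 1449214_a_at read 1607 and 1537 in wild type, 946.6 and 1061 in knockout-control and 771.4 and 488.0 in the knockdown group. It was not called between wild type and knockout-control (log2 fold change -0.63, adjusted p = 0.124, limma) and fell by 1.31 from wild type to knockdown (adjusted p = 0.00705, limma).

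The Opa1 calls between wild type and knockout-control rest on all 4 arrays. Without any 1 of them neither probe set passed, with adjusted p up to 0.180 for 1434890_at and up to 0.216 for 1418768_at, while the log2 fold changes stayed between -1.12 and -0.92 and between -0.86 and -0.69. A lone array is then assumed to vary like the other groups. Between wild type and knockdown, 1434890_at and 1449214_a_at passed without any 1 array (adjusted p up to 0.0227 and 0.0461) and 1418768_at did not pass without the first wild-type array (0.0591).

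The mitofusins gave no call in any comparison in the fit to all 6 arrays with the values as deposited. Mfn2 probe set 1448131_at read 1399.6 and 1332 in wild type, 1673 and 1901 in knockout-control and 1361 and 992.5 in the knockdown group. Both knockout-control arrays were the highest of the 6, and the knockdown arrays spanned from the wild-type level to below it. The log2 fold change was 0.38 (SE 0.18, adjusted p = 0.288, limma) from wild type to knockout-control and -0.60 (adjusted p = 0.201, limma) from knockout-control to knockdown. Leaving out the first knockdown array brought the second of these to -0.83 with an adjusted p of 0.0343. The dimmer Mfn2 probe set, 1451900_at, read 145.8 and 164.6 in wild type, 196.9 and 222.6 in knockout-control and 224.9 and 206.3 in the knockdown group. All 4 knockout arrays were above both wild-type arrays, at log2 fold changes of 0.37 (adjusted p = 0.217) and 0.40 (adjusted p = 0.140, limma). The wild-type mean of this probe set, 155.2, lay under the filter intensity of 163.6. It passed the filter through the knockout groups, where it is high, so neither its separation nor a call of it is evidence of a rise. With quantile normalization Mfn2 1448131_at was called higher in knockout-control than in wild type (0.44, adjusted p = 0.048) and 1451900_at higher in knockdown than in wild type (0.45, adjusted p = 0.0458, limma). The pair of Mfn2 probe sets thus disagreed on the knockdown group, with 1451900_at near the filter. Mfn1 at 1449697_s_at lay between 860.2 and 1151 on the 6 arrays, with the groups overlapping in each comparison and log2 fold changes of 0.01, -0.12 and -0.11. Mfn1 at 1426773_at also overlapped in every comparison, with log2 fold changes of 0.05, -0.17 and -0.11.

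**Figure D1:**
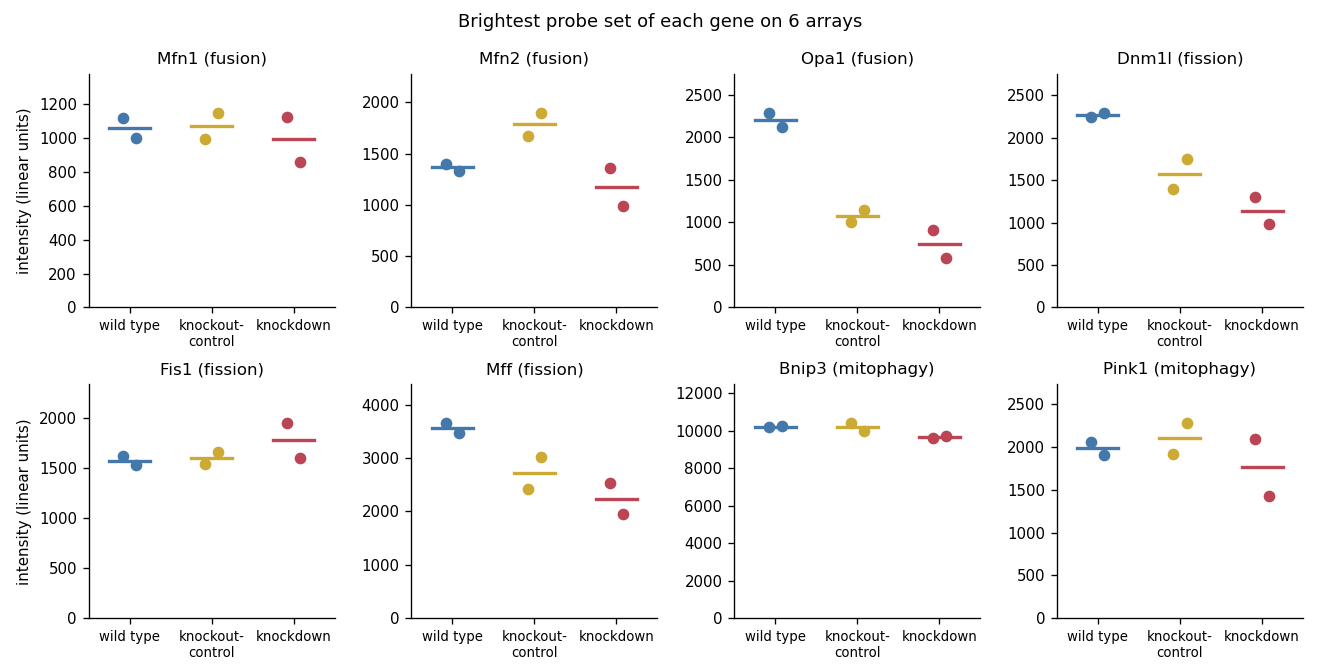
Intensity (linear scale) of the brightest probe set of each gene, 1 panel per gene, with points for arrays and bars for group means (n = 2). Opa1 and Dnm1l step down from wild type, Opa1 1434890_at from 2288 and 2118 to 911.9 and 584.1 in the knockdown group, and Bnip3 stays between 9586 and 10387.

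Dnm1l, the fission GTPase, was lower in the knockdown group than in wild type. Probe set 1428086_at read 2251 and 2297 in wild type, 1397 and 1748 in knockout-control and 1304 and 979.4 in the knockdown group. The wild-type arrays were above all others, and the knockdown arrays were below both knockout-control arrays. Dnm1l fell by 0.99 from wild type to knockdown (adjusted p = 0.0137, limma), and its log2 fold changes of -0.53 (adjusted p = 0.144) and -0.46 (adjusted p = 0.348, limma) in the other comparisons did not pass. Probe set 1428087_at read 2123 and 1989 in wild type, 1430.2 and 1539.9 in knockout-control and 1376 and 1052 in the knockdown group, again with no overlap between the groups. Dnm1l at 1428087_at fell by 0.76 (SE 0.17) from wild type to knockdown (adjusted p = 0.0274, limma). The third Dnm1l probe set above the filter, 1452638_s_at, gave -0.63 there (adjusted p = 0.0684, limma). Probe set 1428086_at did not pass without either wild-type array, nor 1428087_at without either wild-type array or the second knockdown array. The log2 fold changes without any 1 array stayed between -1.19 and -0.79 for 1428086_at and between -0.95 and -0.57 for 1428087_at.

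The probe sets under the filter are given for completeness. Mfn1 at 1419997_at had group means of 83.6, 108.1 and 105.9, and Mff at 1457371_at of 32.6, 30.7 and 37.1, in the order wild type, knockout-control and knockdown. Dnm1l at 1428008_at read 6.34 and 24.1 in wild type, 130.0 and 20.1 in knockout-control and 2.35 and 0.612 in the knockdown group. None of the 3 was tested.

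Mff, the adaptor that recruits DRP1, gave no call. At 1456736_x_at it read 3647 and 3475 in wild type, 2418 and 3016 in knockout-control and 2526 and 1949 in the knockdown group. Both wild-type arrays were the highest, and the other groups overlapped. The log2 fold change from wild type to knockdown was -0.67 (SE 0.18, adjusted p = 0.0527, limma), just over the threshold, and it passed in 8 of the 19 alternative analyses. The other Mff probe sets gave -0.53 (1456582_x_at, adjusted p = 0.116) and -0.64 (1451572_a_at, adjusted p = 0.0775, limma) in this comparison. Fis1, the outer-membrane protein, gave no call either. Fis1 at 1416764_at read 1622 and 1530.1 in wild type, 1540.5 and 1663 in knockout-control and 1950.5 and 1608 in the knockdown group, with the groups overlapping in all comparisons. Fis1 at 1443819_x_at was higher on all 4 knockout arrays than on the wild-type arrays, with a log2 fold change of 0.43 in the knockdown group that did not pass (adjusted p = 0.128, limma).

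The mitophagy genes that could be analysed gave no call. Bnip3, the hypoxia-induced receptor, read 10173 and 10225 in wild type, 10387 and 9956 in knockout-control and 9586 and 9732 in the knockdown group. Its log2 fold changes were -0.00, -0.07 and -0.08. The probe set lies at the 99.8th percentile of mean signal, and how far it still responds to more RNA at this brightness was not tested. Pink1, the kinase, at 1451148_at read 2061 and 1912 in wild type, 1923 and 2275 in knockout-control and 2095 and 1433 in the knockdown group, with the groups overlapping. At 1441937_s_at Pink1 gave log2 fold changes of 0.36 (adjusted p = 0.295) in knockout-control and 0.04 (adjusted p = 0.909, limma) in the knockdown group, both against wild type.

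**Figure D2:**
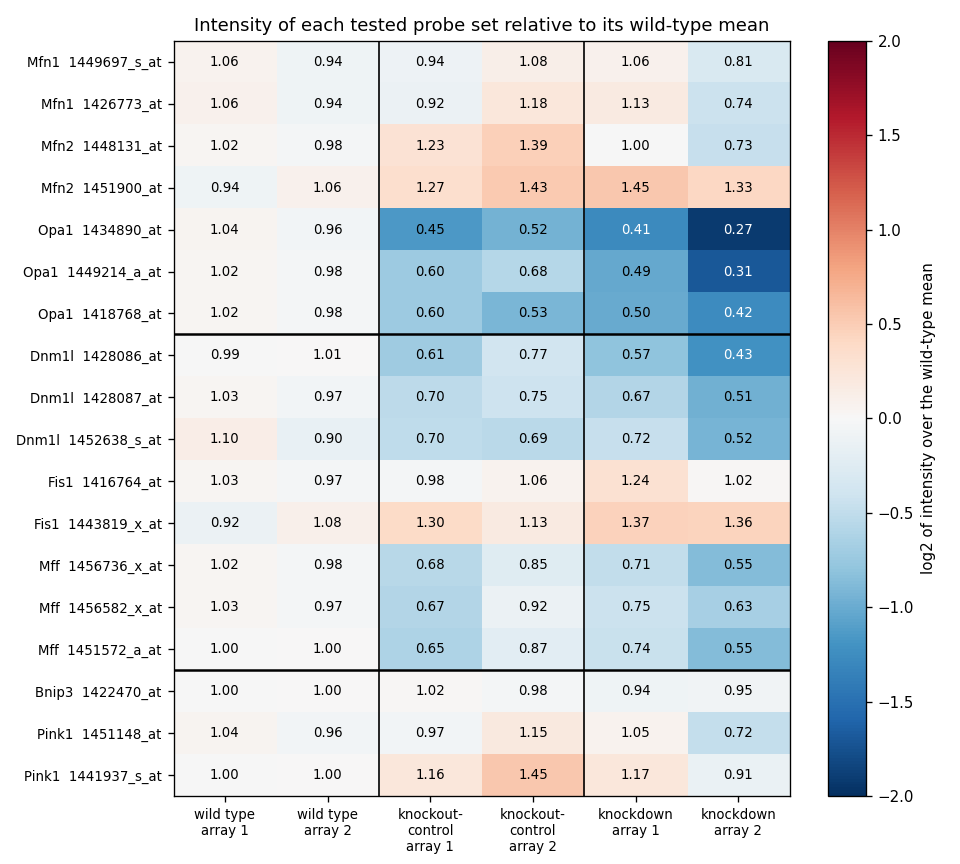
Intensity of each tested member probe set on each array divided by its wild-type mean, with probe sets in rows, arrays in columns, the ratio printed and colour for its log2. Opa1 has the lowest ratios, with its brightest probe set at 48.7% and 34.0% of wild type in the group means, and the second knockdown array is below the first in 17 of 18 tested rows.

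Over the 18 probe sets tested, 2 fell from wild type to knockout-control and none rose, against 3.8% of all probe sets called lower and 2.52% called higher. Both belonged to Opa1. From wild type to knockdown, 5 fell and none rose, against 6.05% and 3.88% of all probe sets, and the 5 were 3 of Opa1 and 2 of Dnm1l. From knockout-control to knockdown limma called 0 of 18, against 0.409% lower and 0.216% higher among all probe sets, while 4 members were lower at an unadjusted p under 0.05, against 7.3% of all probe sets. Without the first knockdown array the count of members called at adjusted p under 0.05 went from 0 to 3, all lower, while the calls over all probe sets went from 0.625% to 4.12% (804 lower and 118 higher). The 3 were Mfn2 1448131_at and Opa1 1434890_at and 1449214_a_at. Probe sets of 1 gene share their transcript and are not independent.

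Both arrays of knockout-control lay below both of wild type for 9 of 18 members, against 30.9% of all probe sets. The same held for 10 of 18 from wild type to knockdown, against 30% of all, and for 7 of 18 from knockout-control to knockdown, against 20.1%. Both arrays lay above instead for 4, 2 and 1 of 18 in the same order. The share of all probe sets in that direction was not counted, so these member counts have no background to be read against. The median log2 fold change of the members was -0.18, -0.38 and -0.25 in these 3 comparisons, in the order given, and that of all probe sets tested -0.01, -0.03 and -0.00. With quantile normalization, which removes the difference in brightness between arrays, 3 members were called lower and 1 higher in knockout-control against wild type, where 11.7% of all probe sets were called, and 8 lower and 1 higher in knockdown against wild type, where 17% were. The higher one in knockdown against wild type was Mfn2 1451900_at, which lay near the filter. Quantile normalization also turned the balance of all calls in knockdown against wild type, from 881 higher and 1375 lower to 2088 higher and 1782 lower. In knockdown against knockout-control it narrowed the balance, from 49 higher and 93 lower to 251 and 274, and median centring gave 96 and 109.

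**Figure D3:**
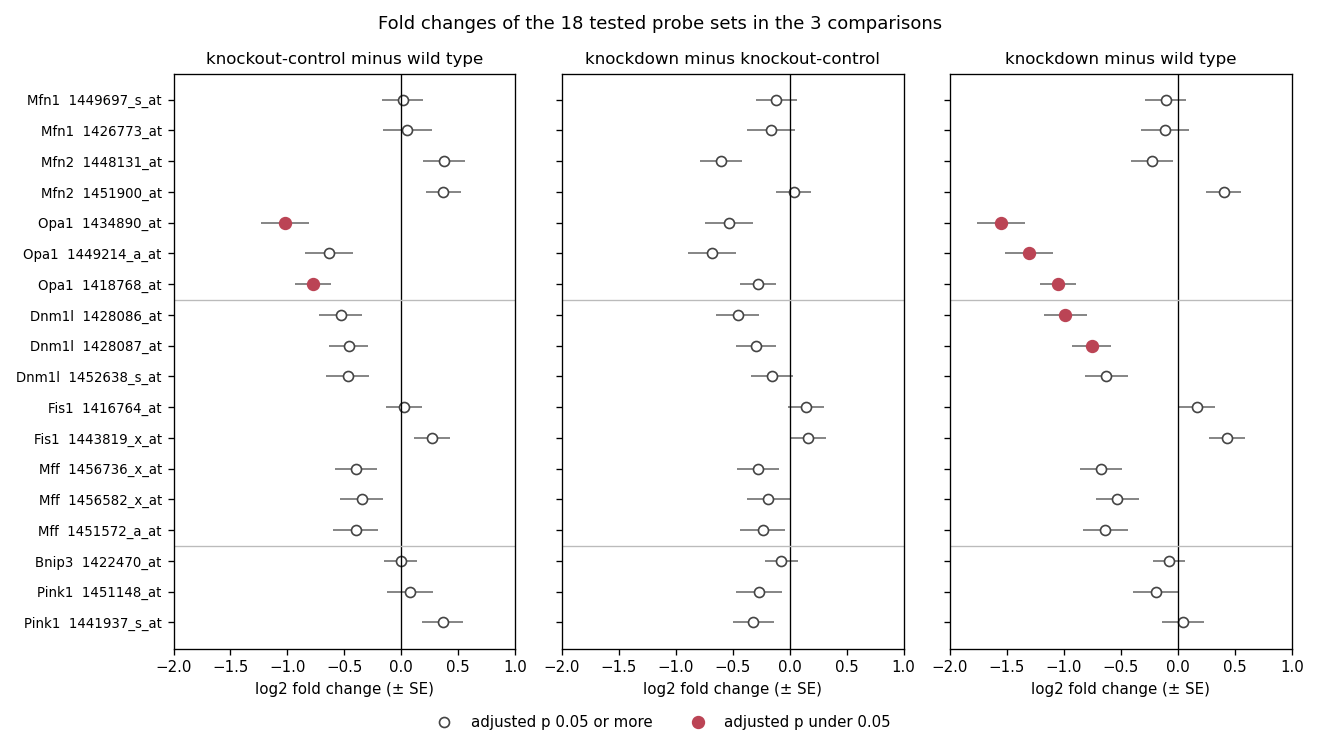
Log2 fold change of each tested member probe set in the 3 comparisons, with bars for the standard error of the limma fit over the 6 arrays and filled points for adjusted p under 0.05. Filled points are 2 of Opa1 in knockout-control against wild type, 3 of Opa1 and 2 of Dnm1l in knockdown against wild type, and none in knockdown against knockout-control.

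The promoters of Opa1, Dnm1l and Mff were read because these 3 genes had the widest range of group means among the members, 1.55, 0.99 and 0.67 on the log2 scale. Windows are from RefSeq on GRCm38.p6, 250 bases before to 50 after the start, and 27025 genes had one. Where several starts are listed for a gene, only the most upstream was read. Mfn2 has 3 listed windows and Dnm1l, Fis1 and Mff have 2 each, so their other starts were not searched. No window was read for Bnip3l. The motifs searched on both strands were AAGGTCA (the estrogen-related receptor core), GCGCATGC (NRF1), CGGAAG (ETS and GABP), ACGTG (hypoxia response core) and AAGATGG (YY1). Capitals mark matches on either strand. Opa1 is at chr16:29579084-29579383 on the plus strand, Dnm1l at chr16:16358982-16359281 on the minus strand and Mff at chr1:82724640-82724939 on the plus strand.
Opa1: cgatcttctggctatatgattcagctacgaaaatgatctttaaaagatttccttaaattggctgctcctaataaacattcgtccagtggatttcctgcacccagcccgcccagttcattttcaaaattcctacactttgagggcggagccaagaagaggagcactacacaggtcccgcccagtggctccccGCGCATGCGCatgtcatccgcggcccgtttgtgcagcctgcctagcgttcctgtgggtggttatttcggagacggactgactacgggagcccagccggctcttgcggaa
Dnm1l: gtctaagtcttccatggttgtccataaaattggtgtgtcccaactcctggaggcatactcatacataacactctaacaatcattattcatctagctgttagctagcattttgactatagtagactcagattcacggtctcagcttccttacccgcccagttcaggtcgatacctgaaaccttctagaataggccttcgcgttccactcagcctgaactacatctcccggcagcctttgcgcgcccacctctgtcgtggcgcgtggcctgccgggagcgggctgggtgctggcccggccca
Mff: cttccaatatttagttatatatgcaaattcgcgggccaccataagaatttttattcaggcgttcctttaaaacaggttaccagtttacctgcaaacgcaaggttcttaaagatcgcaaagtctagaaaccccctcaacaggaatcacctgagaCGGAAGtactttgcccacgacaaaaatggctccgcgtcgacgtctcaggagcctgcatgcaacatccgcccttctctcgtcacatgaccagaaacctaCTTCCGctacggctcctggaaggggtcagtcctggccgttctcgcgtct
The Opa1 window held the NRF1 motif at -59 on the plus and -57 on the minus strand, overlapping, and 2.8% of all windows held it. Mff held CGGAAG at -97 on the plus and 2 on the minus strand. Among the other members, Mfn1 held that motif at -43 and Fis1 at -17, and 17.2% of all windows held it. The Bnip3 window held ACGTG at -108 and -107, found in 19.6% of windows. The windows read for Dnm1l, Mfn2 and Pink1 held none of the 5 motifs. AAGGTCA and AAGATGG, found in 4.65% and 6.46% of windows, were in none of the members' windows that were read. A match is a description of the letters and not evidence of binding.

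Other genes of the pathway were taken from lists written from general knowledge rather than a database, so other lists would give other counts, and were read with 1 probe set per gene, the brightest. Over the 13652 genes tested this way from wild type to knockout-control, 339 (2.48%) rose and 461 (3.38%) fell. From knockout-control to knockdown 28 (0.205%) of 13649 rose and 60 (0.44%) fell, and from wild type to knockdown 510 (3.74%) of 13644 rose and 764 (5.6%) fell. The medians were 0.00, -0.01 and -0.03. The fusion regulators, such as proteases that cut OPA1 and partners of the mitofusins, had 0 of 11 calls in knockout-control against wild type and 2 lower in the knockdown group (median -0.40). These were Parl (-1.39, adjusted p = 0.0113), an inner-membrane rhomboid protease, and Afg3l2 (-1.31, adjusted p = 0.00888, limma), a subunit of the m-AAA protease.

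Genes of the cristae had no call of 9 in knockout-control against wild type. From knockout-control to knockdown 1 fell, Apoo (-1.08, adjusted p = 0.0423, limma), a subunit of the MICOS complex that holds the cristae junctions, and the list's median was -0.68. From wild type to knockdown 4 of 9 fell, with a median of -0.58, among them Apoo (-1.52, adjusted p = 0.00132) and Micos10 (-1.02, adjusted p = 0.0073, limma), another MICOS subunit. A reference list of 12 respiratory and other mitochondrial genes had medians of -0.03, -0.60 and -0.55 in the comparisons of knockout-control with wild type, knockdown with knockout-control and knockdown with wild type. It had 5 lower calls in the last of these, among them Sdhb (-0.90, adjusted p = 0.00717) and Uqcrc2 (-0.90, adjusted p = 0.0152, limma), subunits of respiratory complexes II and III. Beside these medians Opa1 at its brightest probe set gave -1.02, -0.53 and -1.55 in the same order, of which the second was not called, and Dnm1l gave -0.53, -0.46 and -0.99, of which the third alone was called.

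The fission regulators had 4 of 15 lower in the knockdown group than in wild type and none in the other comparisons. Mtfp1 (-1.09, adjusted p = 0.00406), a fission-promoting inner-membrane protein, and Mief2 (-0.86, adjusted p = 0.0221, limma), another adaptor of DRP1, were among them. Transport adaptors, which link mitochondria to motor proteins, had 1 of 6 lower in knockout-control, Trak1 (-0.99, adjusted p = 0.0141), and Trak1 (-1.11) and Trak2 (-0.87, adjusted p = 0.0275, limma) lower in the knockdown group. Of 17 mitophagy receptors and adaptors, limma called none in knockout-control and 1 in each direction in the knockdown group, the deubiquitinase Usp15 higher (0.94, adjusted p = 0.0121) and Nipsnap2 lower (-0.84, adjusted p = 0.019).

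In the autophagy core limma called 3 of 33 genes higher and none lower in knockout-control, and 4 higher and none lower in the knockdown group, both against wild type. Gabarapl1, an ATG8-family protein of the autophagosome membrane, rose by 1.14 (adjusted p = 0.0033) and by 1.43 (adjusted p = 0.001, limma). Ulk2, a kinase of autophagy initiation, rose by 0.67 in knockout-control (adjusted p = 0.0311), and Atg14, of the lipid kinase complex, by 0.96 in the knockdown group (adjusted p = 0.00559, limma). The list's medians were 0.08 and 0.11.

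Bnip3 is known as a hypoxia-induced gene, and a list of others had 4 of 22 lower and 1 higher in knockout-control and 7 lower and 1 higher in the knockdown group, against wild type. Car9, a carbonic anhydrase, fell by 2.94 (adjusted p = 0.000319) and Ndrg1 by 1.79 (adjusted p = 0.0328, limma) in knockout-control. The knockout-control arrays of Ndrg1 lay far apart, at 656.1 and 1878, and it was not called in the knockdown group (-1.01, adjusted p = 0.152, limma). Slc16a3, a lactate transporter, fell by 1.70 in the knockdown group (adjusted p = 0.00209, limma). The higher ones were Hk2 in knockout-control and Pfkfb3 in the knockdown group, and the list's medians were -0.27 and -0.40. Bnip3 gave -0.00 and -0.08 in the same comparisons. Targets of FOXO factors had 2 of 9 higher and 1 lower in knockout-control and 3 higher and 1 lower in the knockdown group, against wild type. The lower one was Sesn3 in both, at -1.25 in knockout-control (adjusted p = 0.00747, limma). Among the higher ones in the knockdown group were Pdk4, the inhibitor of pyruvate dehydrogenase (1.15, adjusted p = 0.00526) and Klf15 (1.35, adjusted p = 0.0127, limma). From knockout-control to knockdown Pdk4 alone was called, higher by 1.19 (adjusted p = 0.0354, limma).

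Of 7 named calls of these lists in knockout-control against wild type, 2 (Car9 and Sesn1, 1.46) were kept without any 1 array, and Trak1, Gabarapl1, Ulk2, Ndrg1 and Sesn3 were lost without 1 or more wild-type or knockout-control arrays (adjusted p up to 0.286). All 3 named calls between knockout-control and knockdown (Apoo, Pdk4 and Ndufs1) were lost without 1 or more arrays (up to 0.292). Of the 18 in knockdown against wild type, Apoo, Mtfp1, Gabarapl1, Car9 and Slc16a3 were kept, and the other 13 were lost without 1 or both wild-type arrays, Trak2 also without the second knockdown array (up to 0.188).

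**Figure D4:**
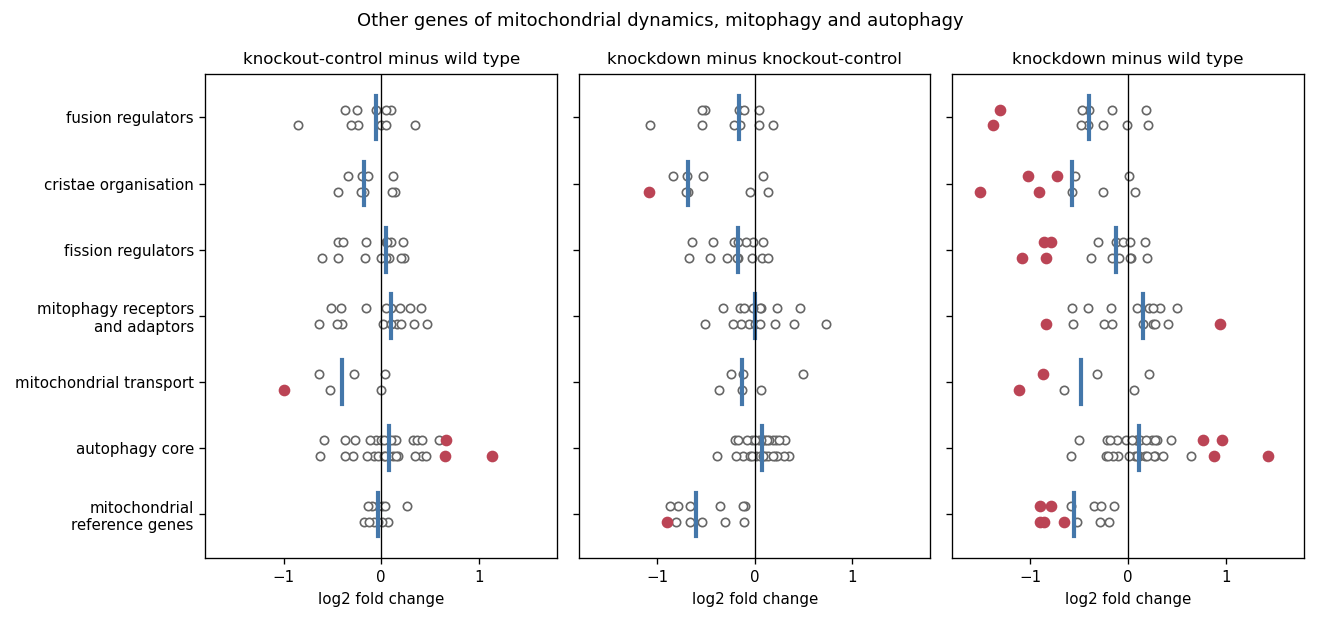
Log2 fold change of each gene of 7 lists in the 3 comparisons, 1 panel each with the same axis. Filled red points passed at adjusted p under 0.05, open points did not, and the blue bar is the list's median, which lies at -0.68 for the cristae genes in knockdown against knockout-control.

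Probe sets whose pattern over the 6 arrays was most like Opa1 1434890_at by Pearson's r were Adam19, Nfyc, Abhd15, Tomm70a and Son, with r between 0.997 and 0.999. For Dnm1l 1428086_at they were Entpd5, 0610012G03Rik, Cst3, Itgax and Herc3, with r of 0.998 for each. Over 22267 probe sets compared, 650 reached r = 0.95 with Opa1 and 636 with Dnm1l. The arrays are those the groups were made of, so probe sets that differ between the groups correlate, and no p is given.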

How the data were processed

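Per the labels, biotinylated total RNA of 6 samples was hybridised to 1 array each, and the sample titles give 3 groups of 2. The authors' deposited values are linear intensities, 1 for each of 45037 probe sets on each array. How probes were summarised and scaled is not given in the sources used here. Array medians lay between 220.9 and 242.7, so no further scaling was applied. Cells with no number were kept as missing, and 0 columns were left unused.

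Gene symbols came from the platform's annotation table and were updated by a RefSeq gene table. Of 34945 with 1 symbol, 34741 matched. Deposited intensities were used as log2(intensity + 32). Probe sets under the 40th percentile of mean log2 were left out, which left 22731. One limma model (version 3.58.1, R 4.3.3) with group means was fitted to all 6 arrays, with 3 residual and 5.82 prior degrees of freedom, and p-values were adjusted by Benjamini-Hochberg over the probe sets tested per comparison (called at adjusted p under 0.05). Genes of lists were adjusted within the same fit. With 2 arrays against 2, exact permutation cannot give a p below 0.333, and it was not used. The scripts were tested on simulated data.

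The members and lists were chosen with earlier results of these data known. Named genes were the members, the targeted coactivators, Ucp1 as an identity check, up to 2 called genes per list and comparison with the largest change, and for the 2 members of widest range the 5 genes with the most similar pattern. Alternatives varied the pseudocount, filter, normalization, model and arrays, and the number of arrays limits the precision.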

Additional observations from a re-analysis of the deposited data

How the results depend on the processing

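Of 93 log2 fold changes tried under 19 alternatives (1727 values), 1531 kept their direction and their side of the threshold, 125 lost the call, 49 gained it and 22 changed sign. Where the cause of a change is not given by the alternative itself, the cause was not tested. The 1434890_at and 1418768_at calls of Opa1 in knockout-control against wild type were lost with no filter (adjusted p = 0.106 and 0.0967, limma). In knockdown against wild type the same setting lost Opa1 1449214_a_at (0.0535), Dnm1l 1428086_at (0.0735) and 1428087_at (0.107). With no filter more probe sets are tested and dim ones enter the estimate of spread. The part of each in the lost calls was not tested. Dnm1l 1428086_at gained a call in knockout-control against wild type with quantile normalization (0.0422), and Mff 1456736_x_at in knockdown against wild type with quantile normalization (0.0202).

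The sample titles give replicate numbers but do not say whether these pair the samples. Deviations of same-numbered arrays correlated at 0.188, -0.113 and -0.496. These deviations include the differences in brightness between arrays, so the correlations cannot decide whether the samples are paired. With the replicate number as a block, 757 probe sets were called in knockout-control against wild type (1435 without it), 17 in knockdown against knockout-control (142) and 1296 in knockdown against wild type (2256), and members called were 0 in the first (2 without it). Crossing the numbers, an alternative added after seeing the data, gave 3282, 1013 and 4433, and 4 and 9 members in the comparisons with wild type. Centring on the tested probe sets, also added after seeing the data, gave 2708, 453 and 3766, and 4 and 9 members.

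In knockout-control against wild type the count of all probe sets was 489 with no filter, 2660 with quantile normalization, 826 with 1 probe set per gene, 3143 with only the groups compared and 390 to 3175 without 1 array. Members called were 0, 4, 1, 5 and 0 to 5. In knockdown against knockout-control the count was 48 with a pseudocount of 1, 278 with 100, 6 with no filter, 260 with the filter at the 60th percentile, 525 with quantile normalization, 39 with only the groups compared, 437 with trend and robust eBayes and 11 to 922 without 1 array. Members called were 0 to 3 without 1 array. In knockdown against wild type the count was 628 with no filter, 3870 with quantile normalization, 1365 with 1 probe set per gene and 538 to 4143 without 1 array. Members called were 2, 9, 2 and 2 to 8.

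Uncalled members close to 0 changed sign. Mfn1 1449697_s_at gave -0.00918 with median centring, and Bnip3 0.0156 with quantile normalization and 0.0112 with centring on tested probe sets, in knockout-control against wild type. The others changed sign without 1 array. In knockout-control against wild type the range was for Bnip3 1422470_at from -0.0347 to 0.0262, Fis1 1416764_at from -0.0316 to 0.0765, Mfn1 1426773_at from -0.108 to 0.216, Mfn1 1449697_s_at from -0.0915 to 0.114 and Pink1 1451148_at from -0.0452 to 0.194. In knockdown against knockout-control the range was for Dnm1l 1452638_s_at from -0.363 to 0.0528, Mff 1456582_x_at from -0.415 to 0.0388, Mfn1 1426773_at from -0.442 to 0.11, Mfn1 1449697_s_at from -0.304 to 0.0703, Mfn2 1451900_at from -0.0415 to 0.112 and Pink1 1451148_at from -0.536 to 0.00245. In knockdown against wild type the range was for Mfn1 1426773_at from -0.388 to 0.164, Mfn1 1449697_s_at from -0.292 to 0.0818, Pink1 1441937_s_at from -0.127 to 0.217 and Pink1 1451148_at from -0.462 to 0.0768. No signal over background was given with the intensities, so what dim probe sets can show was limited by the filter alone.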
